A study of Homo sapiens with 2 samples.

Results

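Imprinted genes are genes that are active mainly from the copy inherited from a single parent. The 40 examined here were taken from a fixed list of symbols in 17 imprinted domains. All 40 symbols were found, each on 1 row, among the 24462 gene symbols of the count files. RNA sequencing had been done on 1 library of neural precursor cells (NPC), which were derived from the H9 line by co-culture on a layer of MS5 feeder cells, and on 1 library of the H9 embryonic stem cells themselves (hESC), kept undifferentiated. H9 is an established pluripotent human line, so both libraries share a single genetic background, and MS5 is a mouse stromal line. The labels give neither the day of differentiation nor any sorting of the NPC away from the feeder. Each group is a single library, so differences are given with counting intervals and without tests.

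In each domain, DNA methylation laid down in the germ cells at a control region marks the maternal or the paternal copy, and the mark is kept through cell division. A domain often holds both paternally and maternally expressed genes, and many also hold a long non-coding RNA that keeps its neighbours silent on the same chromosome. Imprinted genes are known for their roles in fetal growth, placenta and brain, and several of them act in neural stem cells and neurons. By textbook assignment 22 members are expressed from the paternal copy and 11 from the maternal copy. For the other 7 the allele depends on the isoform or tissue or is disputed in humans. An assigned allele does not mean imprinting in every tissue. UBE3A, placed among the 11 maternal members, has its paternal copy silenced in neurons. Reads counted per gene do not separate the parental copies, so every value below is the sum over both.

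Most listed markers of the labelled cell types differed in the direction that the labels call for. Of 12 neural progenitor markers 9 were higher in the NPC library, led by the intermediate filament gene VIM (3291 CPM in NPC, 237 CPM in hESC) and the N-cadherin gene CDH2 (1359 and 122 CPM). CPM are reads per 1000000 of the effective library size after trimmed-mean-of-M-values (TMM) scaling. PAX6 (83.4 CPM in NPC, 1.04 CPM in hESC) and SOX1 (50.6 and 0.460 CPM) were also among the 9. Not among them were NES (366 and 355 CPM), SOX2 (283 and 213 CPM) and HES5 (2.68 and 0.173 CPM). All 9 measured pluripotency markers were lower in the NPC library, and the 10 listed pluripotency markers summed to 35.6 CPM in NPC and 7544 CPM in hESC. The most abundant of these in NPC were DNMT3B, at 22.9 CPM in NPC against 2696 CPM in hESC, and DPPA4, at 4.01 and 495 CPM. Of 12 neuron markers 9 were higher in NPC and 1 lower, and they summed to 2061 CPM in NPC and 453 CPM in hESC. MAP2 had 861 CPM in NPC and 13.8 CPM in hESC, STMN2 205 and 4.43 CPM, and the lower gene RBFOX3 2.17 and 22.8 CPM. Stroma and fibroblast markers summed to 2112 CPM in NPC and 998 CPM in hESC, and 11 of 14 measured ones were higher in NPC and 2 lower. FN1 had 804 CPM in NPC and 172 CPM in hESC, and COL1A2 had 375 and 122 CPM. None of the 16 was at 0 in either library. Markers of endothelium and blood (25.5 CPM in NPC, 163 CPM in hESC, led in NPC by KDR and TEK), trophoblast (19.1 and 17.4 CPM, TFAP2A and GCM1), endoderm (49.6 and 12.3 CPM, CXCR4 and TTR) and muscle (37.2 and 33.5 CPM, MYH7 and TNNT2) summed to lower levels. Choroid plexus markers summed to 229 CPM in NPC, of which OTX2, also a forebrain gene, gave 199 CPM, and to 20.9 CPM in hESC. The trophoblast gene CGA and the muscle gene MYF5 were at 0 in both. The NPC library held 24065750 counted reads and the hESC library 19686728.

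Imprinted genes differed between the libraries mostly by being higher in NPC, and 13 of the 14 higher ones are paternally expressed. Their summed level was 5888 CPM in NPC and 3251 CPM in hESC. A gene was called measured at 5 CPM or more in either library, which is 136 reads in NPC and 86.9 reads in hESC. It was called higher or lower when its exact 95% counting interval lay beyond 2-fold. Of the 40 members 31 were measured, of which 14 were higher and 4 lower in NPC, while 13 did not pass the size rule. Paternally expressed were 18 of the 31 measured members and 3 of the 4 lower ones. Over all 13535 measured genes 19.6% were higher and 19.8% lower. On the log2 scale the ratio of NPC over hESC had a median of 1.08 for the measured members and -0.09 for all measured genes.

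The filter shapes these counts. Of the 31 measured members 8 reached 5 CPM only in NPC, which leaves no room for a lower call, and 3 only in hESC, which leaves no room for a higher one. Among the 20 members at 5 CPM or more in both libraries 7 were higher and 2 lower. Their median log2 ratio was 0.90. Of all 10804 genes with that level in both, 12.8% were higher and 17.2% lower, with a median of -0.14. The scaling matters as well. With the plain library total, which adds 0.36 to every log2 ratio, 19 members were higher and 3 lower. Over all genes 27% were then higher and 13.2% lower, so that 67.2% of calls were higher, against 49.7% with TMM. Most markers of neural progenitors, neurons and stroma were higher in the same library as the 14 members, and their part in those values was not tested. Whether reads of the mouse feeder entered the counts cannot be told from these files. In bulk RNA a gene that is lower because fewer cells express it and a gene that is lower in each cell cannot be told apart. The intervals cover counting error only and hold no variation between cultures.

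By known allele, 13 of 18 measured paternally expressed members were higher in NPC and 3 lower (median log2 ratio 1.79). Over all measured genes the shares were 19.6% higher and 19.8% lower. Of 6 measured maternally expressed members 1 was higher and 1 lower (median 0.37), and none of the 7 with a variable allele passed the size rule in either direction (median 0.34). Of the 11 paternal members at 5 CPM or more in both libraries 7 were higher and 2 lower (median 1.42), beside 12.8% and 17.2% of all genes with that level in both. The difference between the classes was not tested, and counts per gene do not show whether a member is imprinted in these cells. The 6 maternal genes include 4 that reached the filter in a single library, among them both called ones. Another 5 of the 11 maternal members lay under the filter in both libraries. Of these 5 only MEG3 had an interval beyond 2-fold, and it was higher in NPC.

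**Figure D1:**
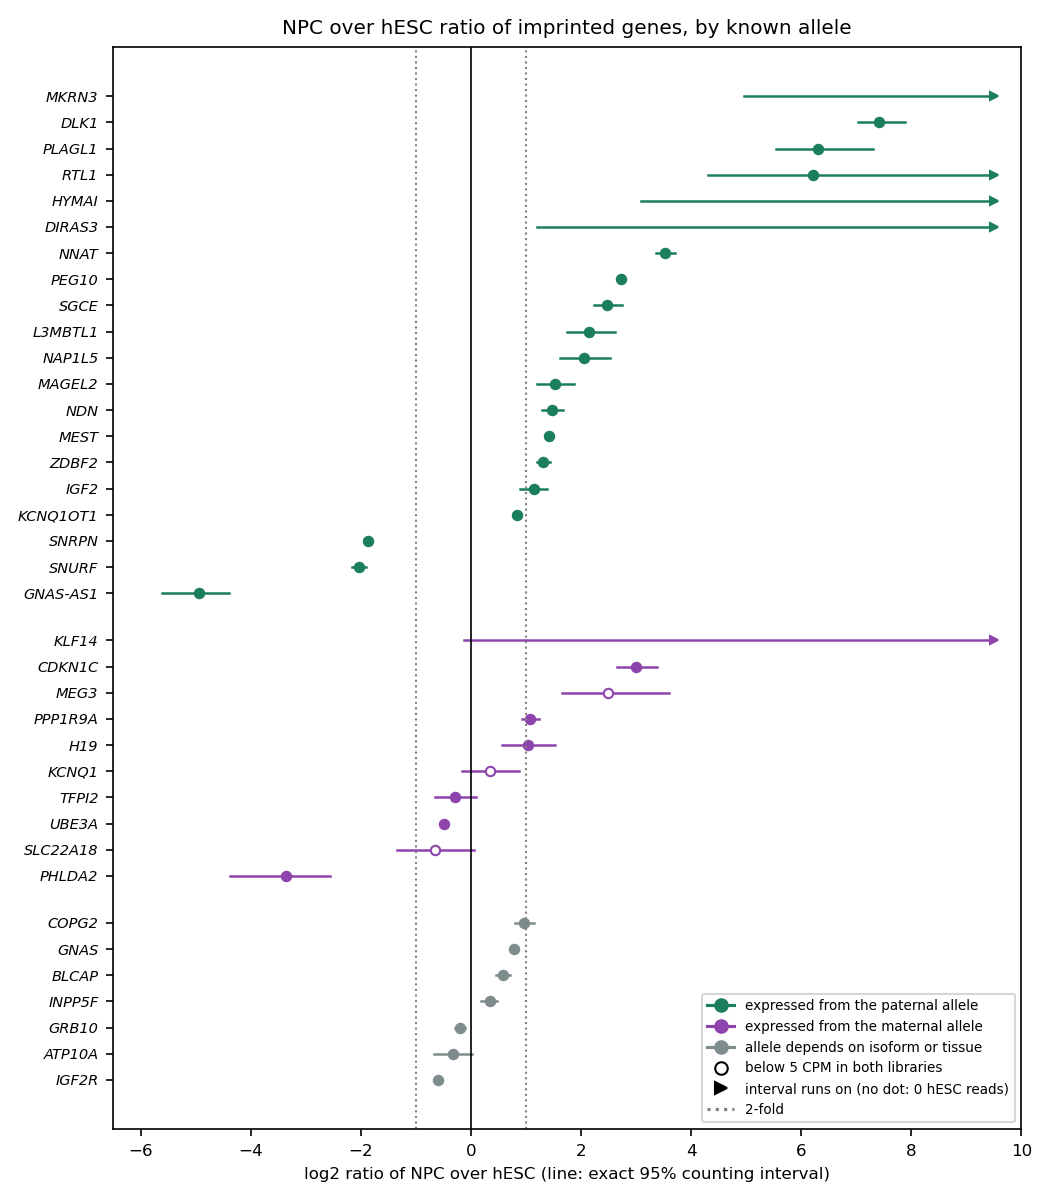
Log2 ratio of NPC over hESC (x axis) with exact 95% counting intervals for the 37 members with more than 3 reads in all, grouped by the allele they are known to be expressed from, with dotted lines at 2-fold. Most paternal genes lie to the right of 2-fold, while SNRPN, SNURF and GNAS-AS1 lie to the left, and the points of the 7 genes with a variable allele lie between the lines.

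Sequences of the promoters are shown for the SNRPN and SNURF pair, which was lower in NPC, the PLAGL1 and HYMAI pair, which shares a start and was low in hESC, a higher gene of the same chromosome 15 domain and a gene that stayed low in both libraries. Each runs 5′ to 3′ on the gene's strand from 250 bases before to 50 bases after a RefSeq start (build GRCh38.p14). Capitals mark TGCCGC, read on either strand, the hexamer that the imprint-keeping protein ZFP57 binds when its CpG is methylated. The window of SNRPN and SNURF is chr15:24954737-24955036 (plus strand), that of PLAGL1 and HYMAI chr6:144008210-144008509 (minus strand), that of NDN chr15:23687256-23687555 (minus strand) and that of MEG3 chr14:100825858-100826157 (plus strand).
SNRPN and SNURF: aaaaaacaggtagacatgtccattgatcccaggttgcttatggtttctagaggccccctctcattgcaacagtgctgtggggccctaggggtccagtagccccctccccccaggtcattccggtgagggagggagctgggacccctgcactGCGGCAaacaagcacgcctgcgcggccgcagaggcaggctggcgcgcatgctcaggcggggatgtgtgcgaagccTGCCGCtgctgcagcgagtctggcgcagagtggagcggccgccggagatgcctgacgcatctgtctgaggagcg
PLAGL1 and HYMAI: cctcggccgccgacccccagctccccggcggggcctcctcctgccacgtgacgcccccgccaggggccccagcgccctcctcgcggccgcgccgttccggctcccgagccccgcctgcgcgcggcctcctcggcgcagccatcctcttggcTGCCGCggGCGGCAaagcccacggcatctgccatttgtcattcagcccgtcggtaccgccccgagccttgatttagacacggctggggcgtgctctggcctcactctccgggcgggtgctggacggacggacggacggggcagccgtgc
NDN: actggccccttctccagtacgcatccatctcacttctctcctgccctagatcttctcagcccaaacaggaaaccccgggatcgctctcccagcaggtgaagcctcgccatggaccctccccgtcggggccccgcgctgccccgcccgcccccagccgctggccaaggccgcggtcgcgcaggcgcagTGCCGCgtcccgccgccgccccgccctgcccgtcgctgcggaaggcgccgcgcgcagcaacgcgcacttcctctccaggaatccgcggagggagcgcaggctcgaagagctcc
MEG3: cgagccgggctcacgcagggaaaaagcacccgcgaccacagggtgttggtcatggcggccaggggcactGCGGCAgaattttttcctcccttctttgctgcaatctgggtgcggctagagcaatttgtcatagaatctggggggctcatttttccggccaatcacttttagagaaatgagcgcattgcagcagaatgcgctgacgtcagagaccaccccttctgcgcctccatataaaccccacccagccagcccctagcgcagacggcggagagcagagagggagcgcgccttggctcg

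The windows hold 18 (SNRPN and SNURF), 39 (PLAGL1 and HYMAI), 35 (NDN) and 19 (MEG3) CpG dinucleotides, and 2, 2, 1 and 1 copies of the hexamer. RefSeq windows were found for 26 members, with 53 distinct start sites in all, some of which overlap. Of these windows 23, or 43.4%, hold TGCCGC on either strand, with overlapping copies counted, against 16.7% of 34943 promoter windows of the same length. The member windows also hold more CpG, with a median of 19 against 14 over all windows. A match is a description of the letters and not a binding site. SNRPN, PLAGL1 and MEG3 have further starts in RefSeq, and reads per gene do not say which start was used.

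**Figure D2:**
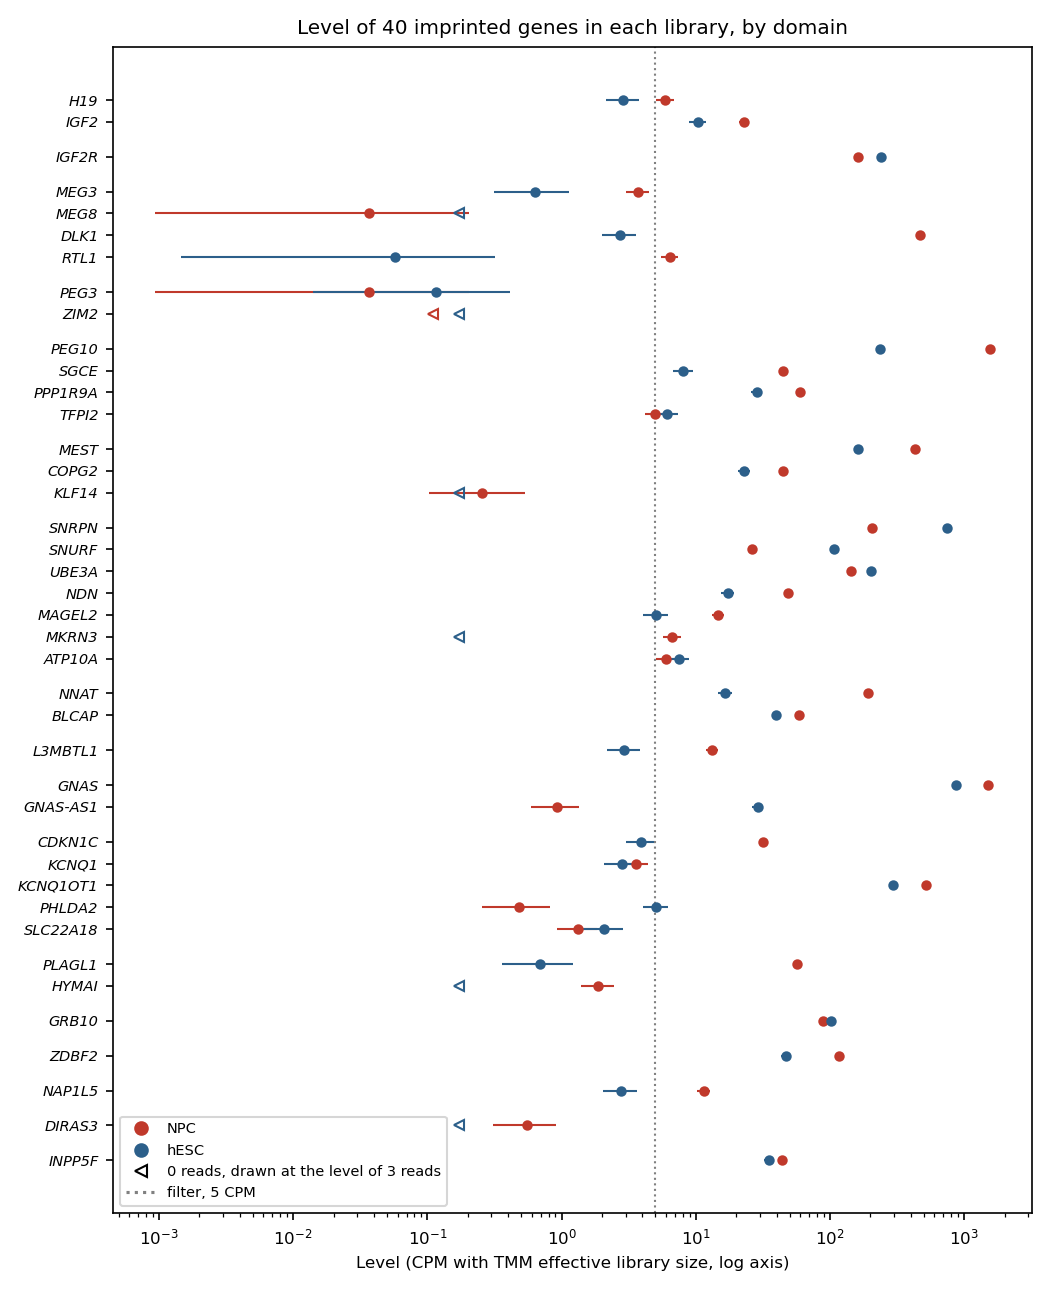
Level in CPM (log x axis) of the 40 members in the NPC and the hESC library, grouped by domain, with exact 95% Poisson intervals and open triangles for 0 reads. PEG10 and GNAS reach the highest levels in NPC, DLK1 has the widest gap among the well covered genes, and PEG3, ZIM2 and MEG8 are near 0 in both libraries.

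The order of the members by level differed between the libraries. Levels per length (CPM per kb of the longest transcript) put GNAS first in NPC at 371, followed by PEG10 at 234, MEST at 172, NNAT at 148, SNRPN at 106 and DLK1 at 99.2. In hESC the order was SNRPN at 384, GNAS at 215, SNURF at 135, MEST at 64.0 and PEG10 at 35.5. DLK1 stood 29th in hESC at 0.573 CPM per kb. On reads alone, PEG10 took 26.3% of all member reads in NPC and 7.22% in hESC, and SNRPN took 3.49% and 22.9%. The scale is rough where a gene uses a shorter isoform than its longest.

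The DLK1-MEG3 domain on chromosome 14 held the widest difference among well covered members, and it lay on the paternal genes. DLK1, a membrane protein related to Notch ligands that keeps progenitor cells immature, had 12746 reads in NPC and 47 in hESC, or 469 and 2.70 CPM. It was 171.5-fold higher in NPC (95% interval 130.2 to 236). RTL1, a gene derived from a retrotransposon, had 174 reads in NPC and 1 in hESC, a ratio of 74.3 (19.7 to 4417).

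The maternal genes of the same domain stayed low in both libraries. MEG3, a long non-coding RNA, had 101 reads in NPC and 11 in hESC, or 3.71 and 0.633 CPM, below the filter in both, with a ratio of 5.64 (3.14 to 12.1). The small RNA host gene MEG8 had 1 read in NPC and 0 in hESC. The 7 SNORD113 rows, small nucleolar RNAs of this domain, had no read in either library, and the 31 SNORD114 rows had 2 reads in NPC and 1 in hESC. The libraries came from an mRNA kit, and how well it captures small nucleolar RNAs, here and below, was not tested. Per length, DLK1 exceeded MEG3 347-fold in NPC and 11.8-fold in hESC. The log2 ratio of DLK1 was 4.93 above that of MEG3 (3.96 to 5.90). DIO3, a deiodinase gene at the far end of the domain, had 82 reads in NPC and 1 in hESC, a ratio of 35.2 (9.15 to 2095). BEGAIN, the neighbour on the other side, was 4.68-fold higher (3.30 to 6.99). MS5 is stromal and DLK1 is also made by stromal cells. Of the 14 measured stroma markers 11 were higher in NPC, among them DCN at 11.1 CPM in NPC and 0.230 CPM in hESC. THY1 (23.5 and 267 CPM) and TAGLN (19.4 and 112.5 CPM) were lower. The part of stromal cells in the DLK1 level was not tested.

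In the SNRPN-UBE3A domain, lost or silenced in Prader-Willi and Angelman syndromes, on chromosome 15 the paternal genes split in 2 directions. MKRN3, MAGEL2 and NDN, intronless genes at one end, were higher in NPC, while SNRPN and SNURF were lower. MKRN3, a RING finger gene that restrains the onset of puberty, had 181 reads in NPC and 0 in hESC and was at least 38.6-fold higher against a floor of 3 hESC reads. The lower bound of its exact interval was 31.0-fold. NDN, a growth-restraining MAGE family gene of postmitotic neurons, had 1315 reads in NPC and 301 in hESC, or 48.3 and 17.3 CPM, and was 2.79-fold higher (2.46 to 3.18). Its family member MAGEL2, a part of a ubiquitin ligase complex, had 399 and 88 reads and was 2.89-fold higher (2.30 to 3.69).

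SNRPN, the gene of the splicing protein SmN, had 5594 reads in NPC and 12953 in hESC, or 206 and 745 CPM. It was 3.62-fold lower in NPC (3.51 to 3.74). SNURF, which shares its transcript and promoter with SNRPN, had 712 and 1869 reads and was 4.11-fold lower (3.77 to 4.49). Reads of this pair cannot be assigned to either gene with certainty, so they are not independent. The counts of lower members hold both, and the 2 lower paternal members at the filter in both libraries are this pair. Rows further along the same transcript, as far as IPW, were lower as well. The non-coding RNAs PWARSN (363 reads in NPC, 774 in hESC), PWAR5 (660 and 1471) and IPW (766 and 1295) were 3.33-fold (2.94 to 3.79), 3.49-fold (3.18 to 3.83) and 2.65-fold (2.42 to 2.90) lower. The 30 SNORD116 rows together had 244 reads in NPC and 544 in hESC, a value 3.49-fold lower (2.99 to 4.08). These small nucleolar RNAs are near-identical copies cut from introns of the transcript, and reads on single rows are uncertain.

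The non-coding rows between IPW and UBE3A held few reads. PWAR1 had 18 reads in NPC and 3 in hESC, a ratio of 3.38 (1.12 to 20.3), under the filter in both. The 48 SNORD115 rows held 12 reads in NPC and 1 in hESC. SNHG14, which overlaps UBE3A, has no row, so how far the transcript runs cannot be read from these counts. The maternal gene UBE3A, a ubiquitin ligase whose paternal copy is silenced in neurons by an antisense extension of the SNRPN transcript, had 3890 reads in NPC and 3496 in hESC, or 143 and 201 CPM. It was 1.41-fold lower (1.34 to 1.47) and did not pass the size rule. The log2 ratio of SNRPN was 1.37 below that of UBE3A, a difference of -1.37 (-1.45 to -1.29), and the gap was -0.66 once the trend of ratios with transcript length was taken out. ATP10A, a phospholipid flippase, had 162 and 130 reads and a 1.26-fold lower level (0.989 to 1.59) that missed the size rule.

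**Figure D3:**
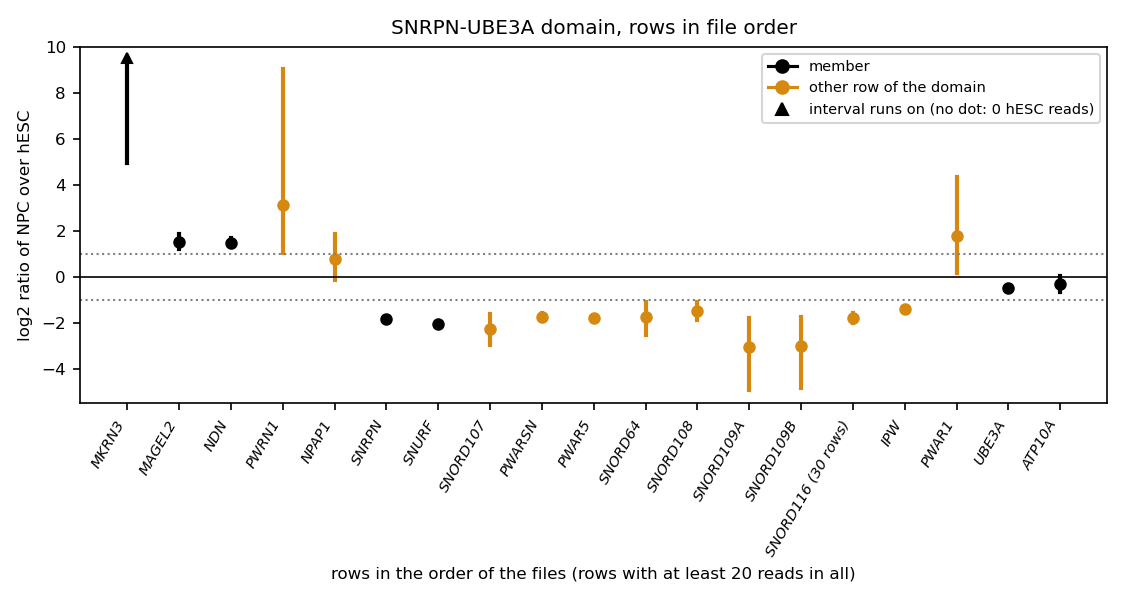
Log2 ratio of NPC over hESC (y axis) with exact 95% counting intervals for rows of the chromosome 15 domain with at least 20 reads, in the order of the files. MKRN3, MAGEL2 and NDN lie above 2-fold, the rows from SNRPN to IPW all lie below 0, and UBE3A and ATP10A lie between the dotted 2-fold lines.

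On chromosome 7, both paternal genes of the PEG10-SGCE domain were higher in NPC. PEG10, a gene of retrotransposon origin needed for the placenta, had 42076 reads in NPC and 4081 in hESC, or 1547 and 235 CPM, and was 6.59-fold higher (6.38 to 6.81). SGCE, which encodes epsilon-sarcoglycan and starts beside PEG10 on the opposite strand, had 1222 and 140 reads and was 5.56-fold higher (4.68 to 6.69). The maternal genes did not follow as far. PPP1R9A, the gene of the actin-binding synaptic protein neurabin, had 1630 reads in NPC and 493 in hESC, a ratio of 2.11 (1.91 to 2.34) that missed the size rule. TFPI2, a protease inhibitor of the matrix, had 136 and 106 reads, a 1.22-fold lower level (0.937 to 1.58) that also missed it. The log2 ratio of SGCE was 1.40 above that of PPP1R9A (1.11 to 1.69). Some neighbours of the domain that are not among the members were higher in NPC too. CASD1, beside SGCE, was 2.89-fold higher (2.51 to 3.36), and the collagen gene COL1A2 3.08-fold (2.94 to 3.23). The G protein subunit gene GNG11 was 8.24-fold higher (5.97 to 12.0) and the paraoxonase gene PON2 9.47-fold (8.23 to 11.01), both by more than PEG10 and SGCE. These neighbours were picked after their values were seen, and whether the rest of the region follows was not tested.

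MEST, another paternal gene on chromosome 7 that encodes a hydrolase-like membrane protein, had 11693 reads in NPC and 2788 in hESC. It was at 430 CPM in NPC and 160 CPM in hESC and was 2.68-fold higher (2.57 to 2.79). Its partner COPG2, a coatomer subunit gene that overlaps it, had 1216 and 397 reads, a ratio of 1.96 (1.75 to 2.20). KLF14, a transcription factor gene, had 7 reads in NPC and 0 in hESC. GRB10, an adaptor that restrains insulin and IGF receptors and is paternally expressed in brain, had 2421 and 1780 reads, a level 1.15-fold lower (1.08 to 1.22) that missed the size rule.

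PLAGL1, a zinc finger factor gene on chromosome 6 that slows cell growth, had 1537 reads in NPC and 12 in hESC. It was 78.6-fold higher in NPC (46.7 to 158.7), at 56.5 and 0.690 CPM. HYMAI, a non-coding RNA with the same start, had 51 reads in NPC and 0 in hESC, at least 10.9-fold higher against the floor of 3 reads (lower bound of the exact interval 8.52-fold), and was under the filter. The 2 genes overlap and their reads may be shared. NNAT, a small membrane protein gene active in the developing brain, had 5225 reads in NPC and 288 in hESC, or 192 and 16.6 CPM, and was 11.6-fold higher (10.3 to 13.1). BLCAP, in whose intron NNAT lies, had 1608 and 688 reads, a ratio of 1.49 (1.37 to 1.64).

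Further paternal genes in domains of their own were higher by smaller factors. L3MBTL1, a chromatin reader gene on chromosome 20, had 358 reads in NPC and 51 in hESC and was 4.45-fold higher (3.34 to 6.14). NAP1L5, a nucleosome assembly protein-like gene, had 313 and 48 reads and was 4.13-fold higher (3.07 to 5.77). It lies within HERC3, which was itself 2.81-fold higher (2.32 to 3.45), and without a stated strand their reads may mix. ZDBF2, a zinc finger gene, had 3160 and 810 reads and was 2.49-fold higher (2.31 to 2.70). It lost that call with the trend in transcript length taken out. DIRAS3, a Ras-like gene that restrains growth, had 15 reads in NPC and 0 in hESC, at least 3.20-fold higher against that floor (lower bound of the exact interval 2.29-fold) and under the filter. PEG3, a zinc finger gene, had 1 read in NPC and 2 in hESC, and ZIM2, which shares its first exons, had 0 in both. The floor of 3 reads for a count of 0 is 0.110 CPM in NPC and 0.173 CPM in hESC, and the upper bounds of the exact Poisson intervals drawn for levels are 0.136 and 0.212 CPM.

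The growth factor IGF2 and the non-coding RNA H19, the reciprocal pair on chromosome 11, were low in both libraries and moved alike. IGF2 had 622 reads in NPC and 180 in hESC, or 22.9 and 10.4 CPM, a ratio of 2.20 (1.87 to 2.62). Nearly the same counts stood on the read-through row INS-IGF2 (591 in NPC, 174 in hESC), so reads on IGF2 may be shared. H19 had 161 and 50 reads, or 5.92 and 2.88 CPM, a ratio of 2.04 (1.49 to 2.89). Neither passed the size rule. IGF2 passed with the library total, the point ratio and log2 of CPM + 1, and H19 with the point ratio. Their log2 ratios differed by 0.11 (-0.41 to 0.62). IGF2R, the receptor that clears IGF2 from the cell surface, had 4365 and 4187 reads and a level 1.501-fold lower (1.44 to 1.57) that missed the size rule.

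The neighbouring KCNQ1OT1 domain on chromosome 11 held the only higher and the only lower gene among the measured maternal members under TMM scaling and the 5 CPM filter. CDKN1C, a cyclin-dependent kinase inhibitor that lets progenitors leave the cell cycle, had 856 reads in NPC and 68 in hESC, or 31.5 and 3.91 CPM, and was 7.99-fold higher (6.28 to 10.5). PHLDA2, which restrains placental growth, had 13 and 88 reads and was 10.3-fold lower (5.89 to 20.7). Its hESC level of 5.06 CPM was just over the filter, and with the library total it fell under it. CDKN1C reached the filter in NPC alone and PHLDA2 in hESC alone, which leaves no room for the opposite call. KCNQ1OT1, the paternal non-coding RNA that keeps its neighbours silent on the same chromosome, had 14197 reads in NPC and 5105 in hESC. Its ratio of 1.78 (1.72 to 1.84) missed the size rule. The log2 ratio of KCNQ1OT1 minus that of CDKN1C was -2.17 (-2.53 to -1.81), with both ratios above 1. With the trend in transcript length taken out the log2 ratio of KCNQ1OT1 was -0.02, so its direction turned, and the difference was -3.31. The potassium channel gene KCNQ1, inside which KCNQ1OT1 lies, had 98 and 49 reads. The transporter gene SLC22A18 had 36 reads in each library.

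At GNAS on chromosome 20 the sense and the antisense gene differed. GNAS, which encodes the stimulatory G protein alpha subunit and other isoforms, had 40657 reads in NPC and 15055 in hESC, or 1495 and 866 CPM, a ratio of 1.73 (1.69 to 1.76). GNAS-AS1, the paternal antisense RNA at the GNAS control region, had 25 reads in NPC and 501 in hESC, or 0.919 and 28.8 CPM, and was 30.8-fold lower (21.0 to 48.9). It was the lower member with the farthest interval bound. INPP5F, a phosphoinositide phosphatase gene with a paternal short isoform, had 1203 and 609 reads and a ratio of 1.26 (1.14 to 1.39). Reads per gene do not separate the isoforms of GNAS, GRB10 and INPP5F, so a shift of an imprinted isoform within them could not be seen.

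Among imprinted genes outside the 40, more were higher than lower in NPC. Of 51 further symbols 47 were present and 22 measured, of which 9 were higher in NPC and 2 lower (median log2 ratio 1.19), beside 19.6% and 19.8% of all measured genes. Of these 22, 7 reached the filter in NPC alone. The other 15 held 4 higher and 2 lower genes with a median of 0.15, beside 12.8% and 17.2% of all genes at the filter in both libraries. The transcription factor gene GLIS3 had 3794 reads in NPC and 14 in hESC and was 167-fold higher (103 to 317). The dopa decarboxylase gene DDC had 192 and 2 reads, a ratio of 49.2 (16.8 to 510), and the synaptic adhesion gene LRRTM1 was 9.70-fold higher (7.04 to 14.1). GLIS3, DDC and LRRTM1 are all among the 7 that reached the filter in NPC alone, which leaves no room for a lower call. The lower genes were PWAR5 and IPW, both of the SNRPN transcript. IPW lost its call with the library total and with the length trend removed. Several of these genes are imprinted in few tissues.

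A list of genes that flank the imprinted domains held 56 present genes, of which 47 were measured. Whether any of these genes is imprinted was not tested. The list leaves out PON2, GNG11, COL1A2 and HERC3, which were all higher. Of the 47 measured genes 8 were higher in NPC and 6 lower, beside 19.6% and 19.8% of all measured genes. The median of their log2 ratios was 0.03. Among the higher were WLS, a WNT secretion factor near DIRAS3 that was 99.8-fold higher (73.9 to 142), BEGAIN and TOX2 (3.12-fold, 2.61 to 3.78). Among the lower were the actin nucleator gene COBL near GRB10, with 33 reads in NPC and 662 in hESC (31.0-fold, 22.1 to 46.0), HERC5 (21.0-fold, 16.3 to 27.8) and the protease gene CTSZ (5.60-fold, 4.32 to 7.42). WLS and BEGAIN reached the filter in NPC alone, and COBL, HERC5 and CTSZ in hESC alone. The 42 flanking genes at the filter in both libraries held 6 higher and 3 lower, with a median of 0.04. Over all genes at the filter in both the shares were 12.8% and 17.2%.

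Among genes that keep or erase imprints and DNA methylation all 25 were present and 18 measured, and in NPC 3 were higher and 6 lower, beside 19.6% and 19.8% of all measured genes. All 18 reached the filter in both libraries. Of all genes with that level in both, 12.8% were higher and 17.2% lower. The log2 ratios of the 18 had a median of -0.22, or of 0.14 with the library total. DNMT3B, which sets new methylation, had 622 reads in NPC and 46862 in hESC and was 118-fold lower (109 to 128). NLRP2, a maternal-effect gene, was 11.7-fold lower (10.7 to 12.8) and the chromatin remodeller gene HELLS 4.98-fold lower (4.75 to 5.23). DNMT1, which copies methylation at replication, was at 283 CPM in NPC and 621 CPM in hESC and was 2.19-fold lower (2.13 to 2.26), a call that was lost with the library total. TRIM28, the partner of ZFP57, was 3.75-fold lower (3.65 to 3.87). The demethylase genes did not move together. TET2 was 11.3-fold higher (9.15 to 14.2), TET1 was 3.84-fold lower (3.59 to 4.12) and TET3 missed the size rule. ARID4A and ARID4B were 7.65-fold (6.79 to 8.67) and 2.55-fold (2.40 to 2.72) higher, the ARID4B call being lost with the length trend removed. ZFP57 itself had 0 reads in NPC and 17 in hESC, under the filter in both.

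Of 20 partners of IGF2, IGF2R and GRB10 in the IGF pathway 18 were measured. In NPC 5 were higher and 7 lower (median of the log2 ratios -0.62), beside 19.6% and 19.8% of all measured genes. The binding protein gene IGFBP5 had 11111 reads in NPC and 90 in hESC and was 78.5-fold higher (64.1 to 98.2). The insulin receptor substrate gene IRS4 was 4.76-fold higher (4.11 to 5.56). IGF1, which encodes a ligand, had 160 reads in NPC and 15 in hESC and was 6.62-fold higher (4.01 to 12.5). The RNA-binding protein gene LIN28B was 12.6-fold lower (11.3 to 14.01), and lower too were the hormone gene STC2 (17.6-fold, 14.01 to 22.7) and IGFBP6 (17.6-fold, 10.1 to 36.2). The 14 partners at the filter in both libraries held 3 higher and 5 lower, with a median of -0.62. Over all genes at the filter in both the shares were 12.8% and 17.2%.

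**Figure D4:**
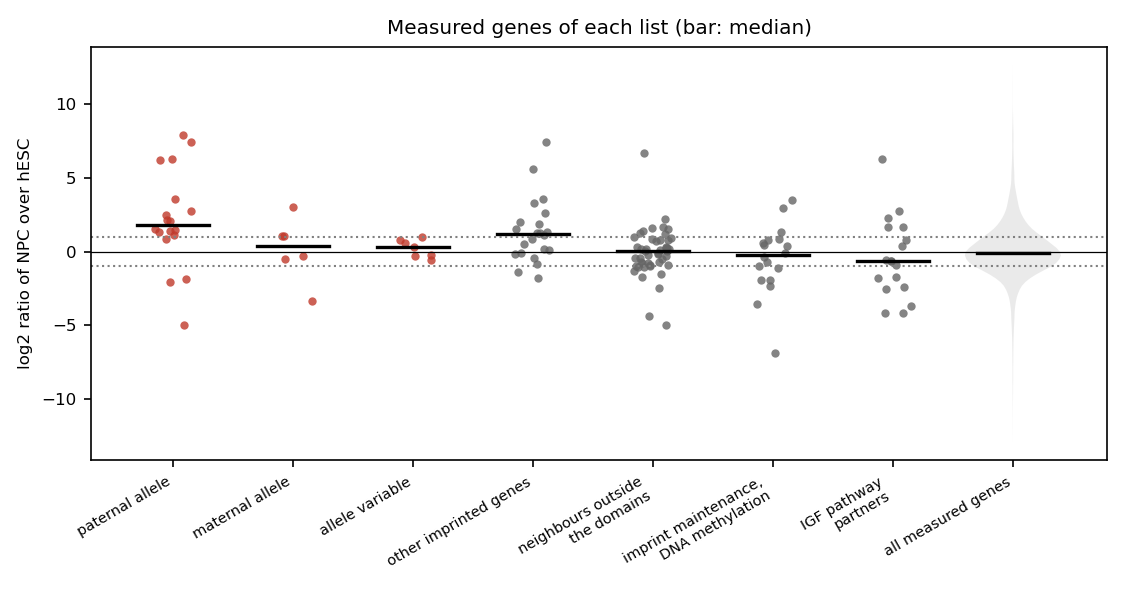
Log2 ratio of NPC over hESC (y axis) of the measured genes of each list, with a bar at the median and the spread of all 13535 measured genes at the right. The medians are 1.79 for the paternal members and 1.19 for the other imprinted genes, but 1.42 and 0.15 for those at the filter in both libraries, so that the place of the other imprinted genes rests on genes that passed in NPC alone. The flanking genes have a median of 0.03 and all genes of -0.09.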

How the data were processed

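RNA was measured in 1 NPC and 1 hESC library. Per the labels' protocols, 1.3 µg of Trizol-extracted total RNA per library went into a SMARTER mRNA-Seq kit. The authors deposited raw counts for each gene symbol. The submitters' processing notes name TopHat, edgeR and hg19, without a role or order. For the counting tool, its strand setting, multiple mapping and the annotation nothing is stated in these sources, so overlapping and antisense genes may share reads.

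Each file had 25737 rows. For 286 symbols on several rows the row with most reads was kept. TMM factors from edgeR 4.0.16 (R 4.3.3) were 1.13 for NPC and 0.884 for hESC. Log2 ratios are NPC over hESC with 0.5 reads added. Their 95% intervals are exact (Clopper-Pearson, from the fraction of each gene's reads that lay in NPC), and levels have exact Poisson intervals. Both cover counting error only, and the labels name no molecular identifiers, so PCR copies may count as separate reads. A fold over a library without reads uses a floor of 3 reads in that library. Differences of log2 ratios have normal intervals on the log scale. The code was tested on simulated data. Lengths are of the longest transcript in GENCODE 29, found for all 40 members and 94.8% of measured genes. Promoter sequences are from RefSeq (GRCh38.p14), which is another build than that of the counts, and were matched by symbol for 26 members. No window was printed or searched for IGF2, MEG8, DLK1, PEG3, ZIM2, PEG10, SGCE, NNAT, GNAS-AS1, CDKN1C, KCNQ1, KCNQ1OT1, PHLDA2 and SLC22A18.

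Members and lists were chosen with earlier results of these data known. All members were named, with up to 3 higher and 3 lower genes of each list by the farthest interval bound, and of marker lists the 2 most abundant in NPC and those at 0 in both. DNMT1, TRIM28, ZFP57, TET1, TET3, SOX1, PAX6, NES, SOX2, HES5, DCN, THY1, TAGLN, RBFOX3, CASD1, COL1A2, GNG11, PON2, HERC3, INS-IGF2, DIO3, PWARSN, PWAR1 and the SNORD rows were named after their values were seen. Results were recomputed with plain library totals, with size factors of DESeq2 1.42.0, with upper-quartile scaling, with filters at 1 and 20 CPM or none, a 4-fold bound, the point ratio, log2 of CPM + 1, summed rows, removal of mitochondrial and ribosomal protein genes, correction of ratios for transcript length (lowess, statsmodels 0.14.6, fraction 0.5) and leaving out members that overlap other genes. Other steps used Python 3.11.15 and scipy 1.17.1.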

Additional observations from a re-analysis of the deposited data

How the results depend on the processing

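No paired analysis was possible because each group has 1 library, and leaving out a replicate was not possible for the same reason. No called member changed direction under any alternative run. Of the measured members without a call, KCNQ1OT1 had a log2 ratio of -0.02 with the length trend removed, and TFPI2 (0.07), ATP10A (0.03) and GRB10 (0.15) turned positive with the library total. Of 280 recomputed member ratios 233 stayed within their counting interval and 47 moved beyond it. Of the 18 called members all 18 kept their call with DESeq2 or upper-quartile factors, summed rows, no ribosomal or mitochondrial genes, the point ratio, log2 of CPM + 1 and filters at 1 CPM or none. With the library total PHLDA2 was lost and IGF2, PPP1R9A, COPG2, GNAS and KCNQ1OT1 were gained as higher. The point ratio gained H19, IGF2 and PPP1R9A, log2 of CPM + 1 gained IGF2 and PPP1R9A, the filter at 1 CPM gained MEG3 and HYMAI, and no filter gained these and DIRAS3, all as higher. At 20 CPM RTL1, MAGEL2, MKRN3, L3MBTL1, PHLDA2 and NAP1L5 were lost. With the length trend removed ZDBF2 was lost and IGF2R was gained as lower.

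Counts of members moved by over 1.5 times as follows. At 20 CPM 9 members were higher, 8 of them paternal, and no maternal one was lower (0). With a 4-fold bound 8 members were higher and 2 lower, of which 7 and 1 were paternal. Without overlapping members 1 was lower and none (0) of the paternal ones. Maternal higher genes numbered 2 with the library total, the filter at 1 CPM, no filter or log2 of CPM + 1, and 3 with the point ratio. No maternal gene (0) was lower with the library total.

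For imprint maintenance 5 were higher with the library total (median log2 ratio 0.14), 10 lower with no filter and 3 lower with a 4-fold bound. For the other imprinted genes the library total gave 14 higher and 1 lower, the filter at 1 CPM 5 lower, no filter 7 lower, the 4-fold bound 5 higher and 0 lower, and length correction 1 lower. For flanking genes the library total gave 13 higher (median 0.40) and the 4-fold bound 1 higher and 3 lower. Their median was -0.00 with DESeq2 factors, -0.19 at 20 CPM, -0.15 with no filter and -0.10 with length correction. IGF partners numbered 2 higher at 20 CPM and 3 with a 4-fold bound. With length correction the log2 ratio of SNRPN minus that of UBE3A was -0.66, and that of KCNQ1OT1 minus that of CDKN1C was -3.31. The cause of these shifts was not tested. Depth limits KLF14, KCNQ1 and SLC22A18, which lay under the filter in both libraries. MEG3, HYMAI and DIRAS3 lay under it too, but their intervals were beyond 2-fold, so the filter kept them from a call.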
